A study of Drosophila melanogaster and Drosophila pseudoobscura and Drosophila virilis with 4 samples.

Results

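The *eya* locus was examined as the 11 open chromatin peaks whose midpoints lie on chromosome 2L between 6.51 and 6.57 Mb (FlyBase release 5), a window that was taken for the gene with its flanks without a check against a release 5 annotation, out of 19424 peaks in all. The peaks were measured by FAIRE-Seq, in which DNA that is poorly bound by nucleosomes is recovered after cross-linking and sequenced, so that a peak is higher where chromatin is more open. Eye-antennal imaginal discs, the larval tissue from which eye and antenna form, were taken from wandering larvae of the third instar raised at 25 °C. *D. melanogaster* was represented by the strains Canton-S (genotype Canton S) and FRT82 (genotype P{neoFRT}82B, a stock that carries a recombinase target site), and *D. pseudoobscura* and *D. virilis* by their wild-type sequenced stocks, with 1 library each. No strain or species thus has a replicate library. The only spread within a species is that between the 2 strains, which mixes library error with differences of genotype. The number and sex of the larvae behind each library are not given in the sources used here.

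*eya* (*eyes absent*, locus tag Dmel_CG9554) encodes a transcriptional coactivator that is also a phosphatase and that works with the homeodomain protein Sine oculis (So), which binds the DNA. Together with *eyeless*, *so* and *dachshund* it forms the retinal determination network, which commits cells of the disc to the eye. Flies that lack its activity in the disc form no eyes, and known eye enhancers of *eya* lie close to the gene. In RefSeq's gene table of release 6, from which only names and gene order were taken, *eya* sits between the noncoding genes lncRNA:CR44775 and lncRNA:CR44776, and the next protein-coding genes are CG31637 and IFT52. Without that annotation, which peaks lie at a promoter, in an intron or nearer to a neighbouring gene was not determined. The peaks are called eya-1 to eya-11 in their order along 2L, and their coordinates are printed as the deposited table gives them.

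The 11 peaks were 162 to 602 bp long, with a median of 210 bp against 289 bp over all peaks. Along 2L cut into 384 windows of 60 kb, the median window held 9 peaks and 43.0% of the windows held at least 11, so the locus was not unusually dense. The peaks formed 5 groups. Peaks eya-1 (6512907 to 6513124) and eya-2 (6513232 to 6513442) were 108 bp apart at the low-coordinate end. Next came eya-3 (6526874 to 6527052) and eya-4 (6527802 to 6528404), 750 bp apart. A cluster of 4 peaks followed, with eya-5 (6534172 to 6534428), eya-6 (6535725 to 6535895), eya-7 (6536001 to 6536601) and eya-8 (6537741 to 6538339). Peak eya-9 (6546861 to 6547023) stood alone, 8522 bp from eya-8. Peaks eya-10 (6562634 to 6562808) and eya-11 (6562821 to 6563022) were 13 bp apart at the high-coordinate end.

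The depth at the locus set the precision. The 11 peaks together held 1958 reads in *D. pseudoobscura*, 1489 in Canton-S, 1131 in *D. virilis* and 635 in FRT82. Of the reads in all peaks of a library, the locus had 0.0458% in FRT82 (95% Wilson interval 0.0424% to 0.0495%), 0.0437% in Canton-S (0.0415% to 0.0460%), 0.0414% in *D. pseudoobscura* (0.0396% to 0.0432%) and 0.0376% in *D. virilis* (0.0355% to 0.0398%). The interval of *D. virilis* lay below those of both strains, whereas the interval of *D. pseudoobscura* overlapped both. These intervals cover counting error alone, since the reads have no molecular identifiers. The smallest count of any peak was 8 reads, at eya-11 in FRT82. In a whole disc, fewer cells with an open region cannot be told apart from a less open region in each cell.

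Peak heights are given below as the deposited RPKM (a read count per length of peak and depth of library), which the authors also normalized between libraries. The reads behind these values stand beside them, in the same order. The highest peak of the locus was not the same in every library: it was eya-3 in Canton-S at 71.7 RPKM, eya-7 in FRT82 at 65.1 RPKM, eya-7 in *D. pseudoobscura* at 66.1 RPKM and eya-9 in *D. virilis* at 79.5 RPKM. The median of the 11 peaks was 24.9 RPKM in Canton-S and 29.8 in FRT82, where all peaks had 28.4 and 28.7. It was 19.0 RPKM in *D. pseudoobscura* and 16.6 in *D. virilis*, where all peaks had 28.1 and 26.8. Within a library the highest *eya* peak stood 6.50 times (Canton-S) to 9.54 times (FRT82) above the lowest.

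**Figure D1:**
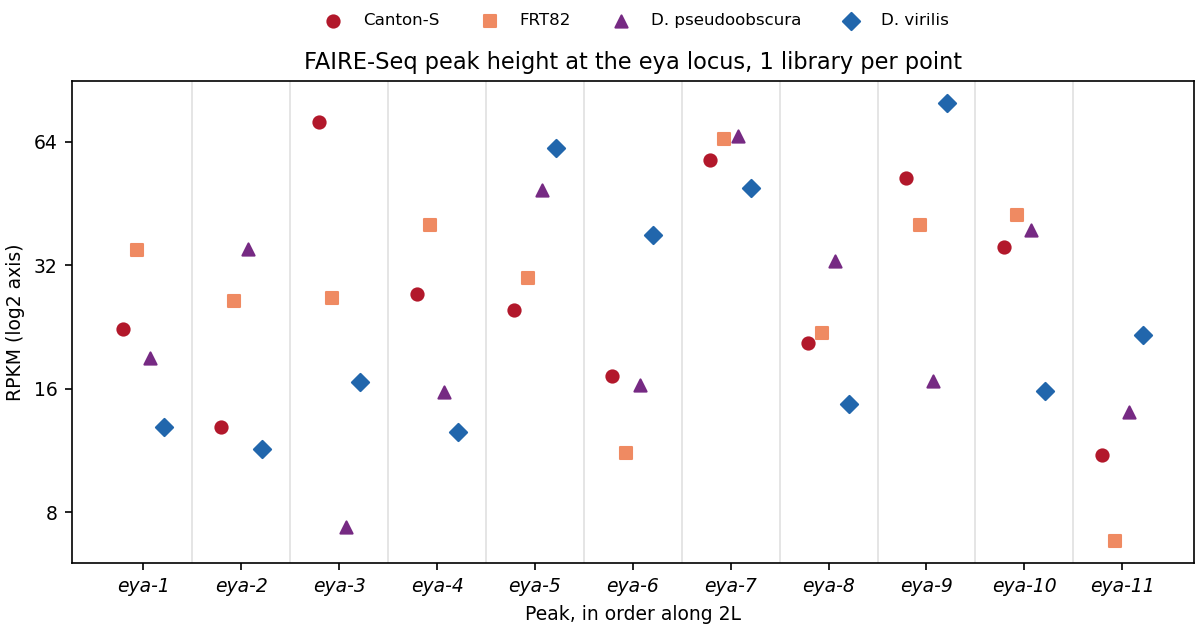
Height of the 11 *eya* peaks in RPKM (log2 axis), in order along 2L, with 1 point per library (Canton-S, FRT82, D. pseudoobscura, D. virilis). The 4 points of eya-7 lie between 49.4 and 66.1 RPKM, whereas those of eya-3 run from 7.39 to 71.7 RPKM.

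Peak eya-7 was the steadiest and, by its mean log2 RPKM over the 4 libraries, the highest of the locus. It had 57.9 RPKM in Canton-S and 65.1 in FRT82, against 66.1 in *D. pseudoobscura* and 49.4 in *D. virilis*, from 440, 206, 727 and 336 reads. Its highest library was 1.34 times its lowest, and 4.42% of all peaks had a ratio that small or smaller (the median ratio was 2.56 over all peaks and 3.07 over the 11). It was picked as the smallest ratio of the 11, so this share does not show that it is unusual. *D. pseudoobscura* was above and *D. virilis* below both strains, by log2 differences of 0.11 and -0.31 from their mean. From log2 CPM with TMM factors (another normalization between libraries) these differences were 0.24 and -0.31. Of the RPKM of the locus weighted by peak length, eya-7 took between 30.7% (*D. virilis*) and 36.3% (*D. pseudoobscura*). It was thus the largest part of the locus in each of the 4 libraries. Outside the locus, the peaks most like eya-7 (smallest root mean square difference of log2 RPKM over the 4 libraries) lay on 3R from 8106325 to 8107171 (0.0625), on 2L from 2174889 to 2176001 (0.0808) and on 3R from 19139876 to 19140521 (0.0876). On 2L alone, the next were those from 8739866 to 8740305 (0.0916) and from 4613657 to 4614740 (0.0997).

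Its neighbours in the cluster were less even. Peak eya-5 was higher in both other species than in either strain, with 24.9 RPKM in Canton-S and 29.8 in FRT82, against 48.9 in *D. pseudoobscura* and 61.9 in *D. virilis* (90, 40, 226 and 178 reads). The strains averaged 27.3 ± 3.46 RPKM (SD, n = 2), and *D. virilis* stood 2.08 times and *D. pseudoobscura* 1.64 times above the higher strain. Peak eya-6, 106 bp from eya-7, had 17.2 RPKM in Canton-S and 11.1 in FRT82, against 16.4 in *D. pseudoobscura* and 38.1 in *D. virilis* (46, 11, 47 and 73 reads). *D. pseudoobscura* lay within the range of the strains there, and *D. virilis* was 2.22 times above the higher strain. Peak eya-8 had 20.7, 21.9, 32.8 and 14.7 RPKM in the same order (185, 71, 360 and 113 reads). The strains were nearly equal at eya-8 (21.3 ± 0.848 RPKM, SD, n = 2), with *D. pseudoobscura* above both and *D. virilis* below both.

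Peak eya-3 varied most, also between the strains. It had 71.7 RPKM in Canton-S and 26.6 in FRT82, against 7.39 in *D. pseudoobscura* and 16.6 in *D. virilis*, from 156, 25, 18 and 39 reads. Canton-S was 2.70 times above FRT82, and 2.62% of all peaks had a strain difference that large or larger. The 95% Poisson interval of the FRT82 count ran from 16.2 to 36.9 reads and that of *D. pseudoobscura* from 10.7 to 28.4. These are raw counts from libraries of unlike depth, with 1386805 reads in all peaks in FRT82 and 4733792 in *D. pseudoobscura*. The intervals can therefore not be set against each other directly. Both other species lay below both strains, *D. pseudoobscura* by 3.60 times and *D. virilis* by 1.60 times relative to the lower strain. The highest library was 9.70 times the lowest, a ratio reached by 2.03% of all peaks. As eya-3 was picked as the most variable of the 11, these shares do not show that it is unusual. Peak eya-3 ranked first of the 11 in Canton-S, 7th in FRT82, last in *D. pseudoobscura* and 6th in *D. virilis*.

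Peak eya-4, the longest of the locus, likewise had both strains above both other species, with less spread. It had 27.2 RPKM in Canton-S and 40.1 in FRT82, against 15.7 in *D. pseudoobscura* and 12.6 in *D. virilis* (226, 130, 158 and 93 reads). The lower strain stood 1.73 times above *D. pseudoobscura* and 2.16 times above *D. virilis*. Together with eya-3 and eya-1 it made 3 of 11 peaks at which both strains were above both other libraries, against 22.7% of all peaks. At eya-5 and eya-11, both strains were below both other libraries (2 of 11, against 20.5% of all peaks).

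At the isolated peak eya-9 the other species lay on opposite sides of *D. melanogaster*. It had 52.3 RPKM in Canton-S and 40.2 in FRT82, against 16.7 in *D. pseudoobscura* and 79.5 in *D. virilis* (109, 35, 46 and 140 reads). *D. pseudoobscura* was 2.40 times below the lower strain, and *D. virilis* was 1.52 times above the higher strain. *D. virilis* was 4.75 times above *D. pseudoobscura*, a log2 difference of 2.25, the widest between these species among the 11 peaks. Of all peaks, 95.8% were no higher than eya-9 in *D. virilis* and 24.3% in *D. pseudoobscura*. Opposite sides were also seen at eya-2, eya-7 and eya-8, so that they made up 4 of the 11 peaks (24.4% of all peaks). This count had no minimum fold, and some margins were narrow. *D. pseudoobscura* was 1.02 times the higher strain at eya-7, and *D. virilis* was 1.13 times below the lower strain at eya-2, from 29 reads.

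The peaks at both ends of the locus included its lowest in each library but that of *D. pseudoobscura*. Peak eya-1 had 22.3 RPKM in Canton-S and 34.8 in FRT82, against 19.0 in *D. pseudoobscura* and 12.9 in *D. virilis* (71, 40, 72 and 35 reads), so that both other species were below both strains. Peak eya-2 had 12.9, 26.2, 35.2 and 11.4 RPKM in the same order (46, 29, 135 and 29 reads). FRT82 was 2.02 times above Canton-S at eya-2, *D. pseudoobscura* was above both strains and *D. virilis* below both. Peak eya-10 had 35.6 RPKM in Canton-S and 42.6 in FRT82, against 39.1 in *D. pseudoobscura* and 15.8 in *D. virilis* (81, 40, 123 and 36 reads). *D. virilis* alone stood apart at eya-10, 2.25 times below the lower strain. Peak eya-11, the lowest by its mean log2 RPKM, had 11.03, 6.82, 14.1 and 21.7 RPKM in the same order (39, 8, 46 and 59 reads). Both other species were above both strains at eya-11, and the 95% Poisson interval of the 8 reads in FRT82 ran from 3.45 to 15.8.

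A library of *D. pseudoobscura* or *D. virilis* was called apart where it was at least 2-fold above the higher or below the lower strain. These species have 1 library each, so the calls have no replicate check. *D. pseudoobscura* was called lower at eya-3 and eya-9 (2 of 11 peaks, against 9.73% of all peaks) and higher at none (0 of 11, against 11.2%). *D. virilis* was called higher at eya-5 and eya-6 (2 of 11, against 12.4% of all peaks) and lower at eya-4 and eya-10 (2 of 11, against 12.6%). None of the 11 peaks was called in both species, against 7.25% of all peaks. With a single strain as reference, eya-4 and eya-11 (without Canton-S) or eya-3 (without FRT82) were called in both, against 14.2% and 13.2% of all peaks. From log2 CPM with TMM factors, the *D. virilis* calls at eya-6 and eya-10 were lost and those at eya-4 and eya-5 stayed. Peak eya-11 fell just short in *D. virilis*, at 1.97 times the higher strain. The strains themselves differed by 2-fold or more at eya-2 and eya-3 (2 of 11, against 9.74% of all peaks).

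With no minimum fold, *D. pseudoobscura* lay outside the range of the strains at 9 of the 11 peaks (79.7% of all peaks) and *D. virilis* at all 11 (81.9%). Relative to the strains' mean, log2 heights had a median difference of 0.11 over the *eya* peaks in *D. pseudoobscura* (range -2.56 to 0.94), against -0.01 over all peaks. In *D. virilis* the median was -0.54 (range -1.40 to 1.46), against -0.02 over all peaks, with 7 of the 11 peaks below the strains' mean. The typical size of the difference, as the median absolute log2 ratio, was 0.56 between the strains, 0.70 for *D. pseudoobscura* and 1.19 for *D. virilis* at *eya*. Over all peaks it was 0.38, 0.60 and 0.68. By this median the 11 peaks of *D. virilis* lay farther from *D. melanogaster* than the typical peak of the table, and the strains too lay farther apart. Peaks eya-7 and eya-8 were nearer than the typical peak in *D. virilis*, at -0.31 and -0.54. Without Canton-S or FRT82 the signed median ratio of *D. virilis* was -0.58 or -0.23, and the median absolute ratio was not recomputed.

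**Figure D2:**
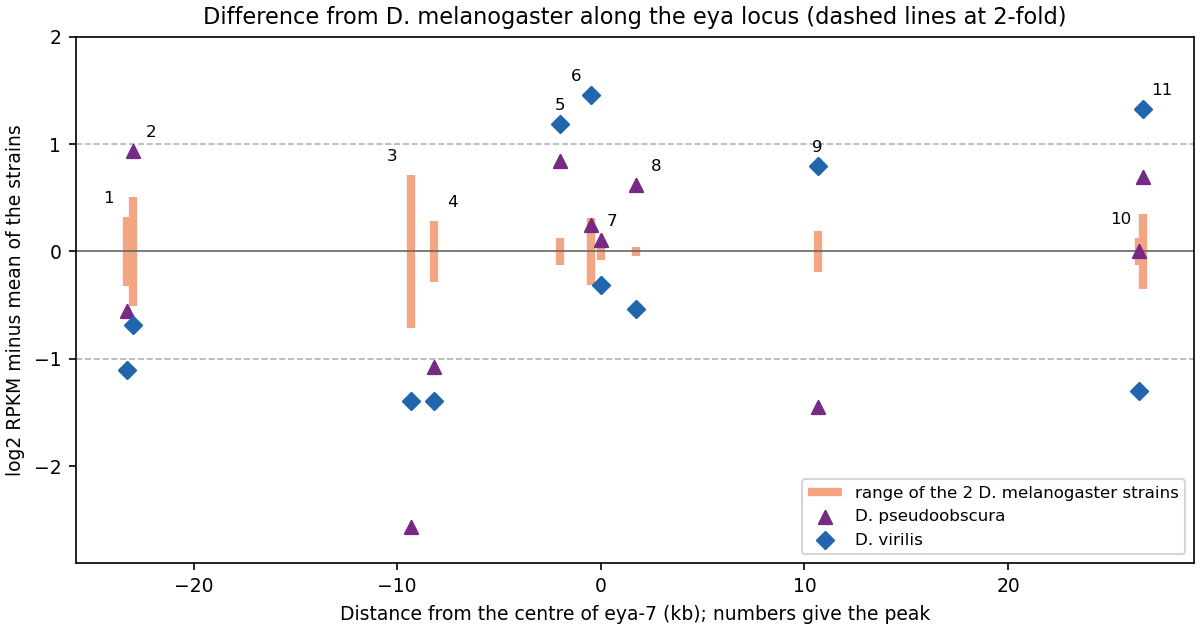
Difference of *D. pseudoobscura* (triangles) and *D. virilis* (diamonds) from the mean of the *D. melanogaster* strains in log2 RPKM, against the distance in kb from the centre of eya-7. Orange bars span the strains and dashed lines mark 2-fold. At eya-10 and eya-11, at the right end, *D. virilis* lies at -1.30 and 1.32.

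Close neighbours did not always differ from *D. melanogaster* in the same direction. In *D. virilis* eya-10 was at -1.30 and eya-11, 13 bp away, at 1.32, a difference of 2.63 log2 units between adjacent peaks. The height of eya-11 relative to eya-10 was between 0.160 (FRT82) and 0.360 (*D. pseudoobscura*) in 3 libraries and 1.38 in *D. virilis*, so that the higher peak of the pair was eya-10 in 3 libraries and eya-11 in *D. virilis*. Of the 2319 pairs of neighbouring peaks in the table that are at most 150 bp apart, 1.94% differed by as much in *D. virilis*. The size depended on the reference strain, with 8 reads at eya-11 in FRT82. Without FRT82, eya-10 was at -1.17 and eya-11 at 0.98, and without Canton-S they were at -1.43 and 1.67. The share of pairs was not recomputed for a single strain. Summed over both peaks (RPKM times length), the pair was at -0.27 in *D. virilis*.

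The same was seen with smaller differences in the cluster and at the other end. In *D. virilis* eya-6 was at 1.46 and eya-7 at -0.31, with 10.3% of such pairs as far apart. The height of eya-7 relative to eya-6 was 1.30 in *D. virilis* and between 3.38 (Canton-S) and 5.84 (FRT82) in the other libraries. In *D. pseudoobscura* eya-1 was at -0.55 and eya-2 at 0.94, with 14.7% of the pairs as far apart. The *eya* locus had 3 such pairs, of which 2 lay on opposite sides of the strains' mean in *D. virilis* (38.3% of all pairs) and 1 in *D. pseudoobscura* (38.5%). Opposite sides were therefore common in the whole table, and what set eya-10 and eya-11 apart was the size of the difference. These pairs were picked out after their values were seen.

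To compare *D. melanogaster* with the other species on read counts, the 2 strains formed a group and the other 2 libraries, though of different species, a second (quasi-likelihood test of edgeR, Benjamini-Hochberg adjustment over all 19424 peaks). No *eya* peak was called at an adjusted p under 0.05, and neither was any other peak (0% of all peaks). At an unadjusted p under 0.05, eya-4 and eya-3 were higher in *D. melanogaster* (2 of 11, against 5.55% of all peaks). Peak eya-4 had a log2 fold change of 1.26 (approximate SE 0.47, adjusted p = 0.394 from edgeR), and the adjusted p ran from 0.243 to 0.423 over the alternatives that keep all 4 libraries. Peak eya-3 had 1.92 (SE 0.77, adjusted p = 0.432 from edgeR, 0.0916 to 0.443 over the same alternatives). Peak eya-5 came next, with -0.996 (SE 0.50, adjusted p = 0.535 from edgeR, 0.316 to 0.531 over the same alternatives). Without a strain the only spread left was that between *D. pseudoobscura* and *D. virilis*, the adjusted p was 1.00 at each of the 3 peaks, and none of the 11 passed the unadjusted threshold. DESeq2 and limma with a trend on log2(RPKM + 1) called none of the *eya* peaks either, against 0.904% and 1.40% of all peaks, and DESeq2 gave eya-11 no adjusted p. The distance of the other species from each other is part of the error here. It was wide at eya-9, where they lie on opposite sides of the strains (log2 fold change 0.02, SE 0.67).

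The likelihood ratio of Ornstein-Uhlenbeck models compares a shared optimum of peak height across the phylogeny with an optimum of its own in 1 species. It placed 2 of the 11 *eya* peaks in a class at an adjusted p under 0.05, against 32.5% of all peaks. Peak eya-10 was placed with a separate optimum in *D. virilis*, which was lower there (adjusted p = 0.0113 by chi-square over all peaks and models). Peak eya-5 was placed with a separate optimum in *D. melanogaster*, which was lower there (adjusted p = 0.0423 by the same test). A class names the species that stands apart, and does not tell a gain from a loss. Peaks eya-4 and eya-6 were just outside, with adjusted p-values of 0.0505 for an optimum of *D. melanogaster* and 0.0512 for one of *D. virilis*. Peak eya-3, the most variable, was not placed in a class (adjusted p = 0.135). With 4 tips the chi-square threshold is approximate, and at an adjusted p under 0.01 none of the 11 peaks was in a class, against 5.99% of all peaks.

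The profile along the locus was compared as the correlation of log2 RPKM across the 11 peaks, which share their libraries and differ in depth, so that it is a description. Pearson's r was 0.69 between the strains (0.81 over all peaks), -0.05 between Canton-S and *D. pseudoobscura* (0.45 over all peaks) and 0.34 between Canton-S and *D. virilis* (0.36 over all peaks). With FRT82 in place of Canton-S it was 0.44 for *D. pseudoobscura* and 0.10 for *D. virilis*. The order of the species thus depended on the strain. Without eya-3, where the strains differed most, r was 0.82 between the strains, for Canton-S it was 0.38 with *D. pseudoobscura* and 0.51 with *D. virilis*, and for FRT82 it was 0.54 and 0.10.

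**Figure D3:**
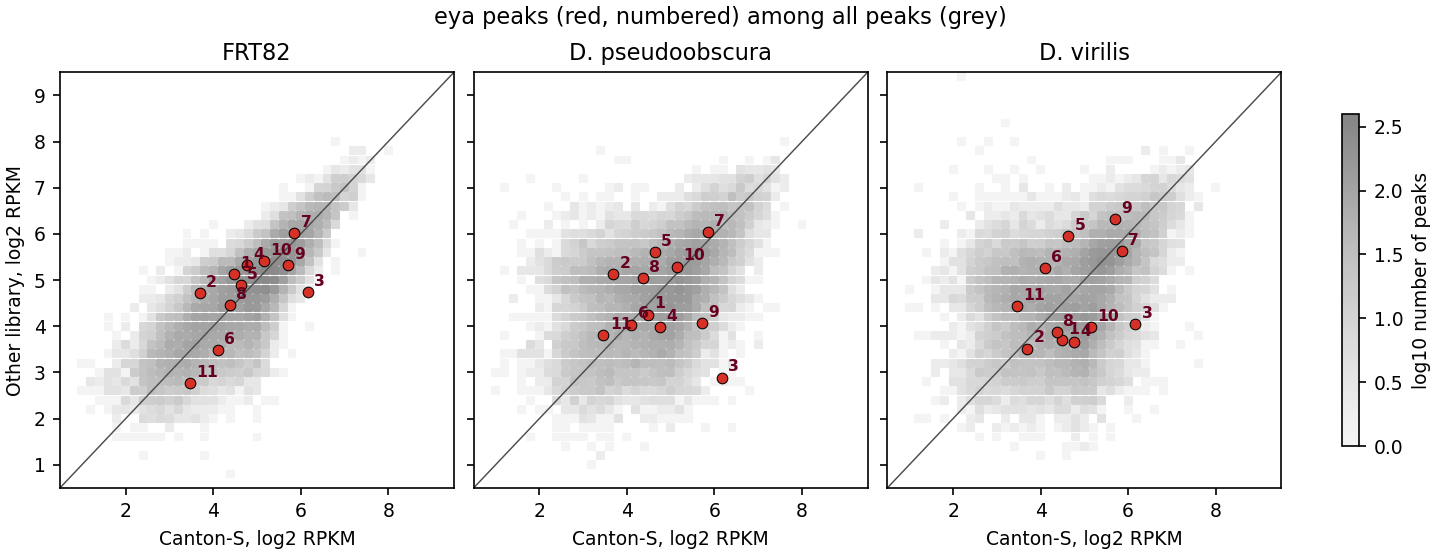
Log2 RPKM of the 11 *eya* peaks (red, numbered) in FRT82, *D. pseudoobscura* and *D. virilis* against Canton-S, over the density of all 19424 peaks (grey, log10 of the number of peaks) and the line of equal height. Peak 3 lies below the line in all 3 panels, and peaks 5, 6, 9 and 11 lie above it in *D. virilis*.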

How the data were processed

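Per the methods, the authors discarded reads with adapter residues, used Bowtie2 to align reads to the genome of their species (FlyBase release 5 for *D. melanogaster*, 2 for *D. pseudoobscura*, 1 for *D. virilis*), carried the alignments over to release 5 by liftOver at a minMatch of 0.1, and pooled the peaks that F-Seq found in each library. The deposited counts are the authors' HTSeq reads per peak without strand, and regions with 0 reads in a species were left out by them. The deposited RPKM values were scaled for length and depth and normalized between libraries by the authors, with a tool not given in the sources used here. Reads that cannot be moved to *D. melanogaster* coordinates are lost from the other species alone.

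The 11 peaks were taken by midpoint, and all entered the tests, apart from the alternative with a minimum of 10 counts, which left out eya-11, and DESeq2, which gave it no adjusted p. Tests were fitted on all peaks with DESeq2 1.42.0, edgeR 4.0.16 and limma 3.58.1 in R 4.3.3, without a filter on low counts, and checked first on simulated data. The SE of edgeR is the log2 fold change over the square root of F. The likelihood ratio was written in numpy 2.4.6 after the description of the method and is not the ouch package itself. It used 60 strengths of selection from 0.05 to 200 and assumed relative depths of 0.6 for the split of *D. melanogaster* and *D. pseudoobscura* and 0.02 for the strains.

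Values in full were planned for the 5 highest and 3 lowest peaks, the longest, the 3 with the widest strain difference, those past the 2-fold rule or in a class and the 3 with the smallest p, which is all but eya-1 and eya-8, added later. The members, lists and alternatives were chosen with earlier results of these data known, and the comparison of neighbouring peaks, the correlation without eya-3 and that with FRT82 were added after the values were seen. The alternatives were other normalizations, folds, windows, trees and tests, a minimum of 10 counts, pseudocounts of 1 and 5 and leaving out each strain. Release 5 sequence was not used here, so no sequence, motif or mappability was examined.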

Additional observations from a re-analysis of the deposited data

Results flagged for a closer look

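At 4 of the 11 *eya* peaks *D. pseudoobscura* and *D. virilis* lay on opposite sides of both *D. melanogaster* strains, against 24.4% of all peaks, and this difference between species was not tested, since each has 1 library. The log2 ratio of *D. virilis* to *D. pseudoobscura* was -1.62 at eya-2, -0.42 at eya-7, -1.16 at eya-8 and 2.25 at eya-9. *D. virilis* was the lower of the species at eya-2, eya-7 and eya-8 and the higher at eya-9. At eya-2 the strains themselves differed by 1.02 log2 units, with 29 reads in FRT82. At eya-7 the difference between the species was the smallest of the 4, from the largest counts of the locus. The sides had no minimum fold: *D. pseudoobscura* was 1.02 times the higher strain at eya-7, and *D. virilis* 1.13 times below the lower strain at eya-2.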

How the results depend on the processing

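At 1.5-fold the number of *eya* peaks called apart was 4 in *D. pseudoobscura* (38.5% of all peaks) and 8 in *D. virilis* (42.7%), with 4 called in both species (19.6%). At 4-fold it was 0 in both (3.55% and 5.08% of all peaks), against 2 and 4 at 2-fold (20.9% and 24.9%). From log2 CPM with TMM factors 2 peaks were called in *D. virilis*, eya-4 and eya-5 (22.3% of all peaks). Leaving out a strain gave 3 to 4 peaks in *D. pseudoobscura* (30.9% and 31.7% of all peaks). In *D. virilis* it gave 5 to 7 (35.4% and 35.6%), and the higher number came without Canton-S in both species. Peaks in a class of the likelihood ratio numbered 2 (6315 of all 19424 peaks), against 0 at an adjusted p under 0.01 (1164 of all peaks). There were 4 with the strains split at 0.1 of the depth (7115 of all peaks) and 3 on log2 CPM (6663). With 3 libraries that test placed 12998 or 13162 of all peaks in a class, against 6315 with 4. The likelihood ratio placed eya-5 and eya-10 in the same classes with a star tree and with the species split at 0.9 of the depth. On log2 CPM they also kept their classes, and eya-4 joined them with an optimum of *D. melanogaster*. The count test called 0 of the peaks in all 8 alternatives (with 10 of the 11 peaks tested at 10 counts or more and 10 given an adjusted p by DESeq2), with 2 at an unadjusted p under 0.05 in the 6 that keep both strains. Without a strain there was none, in fits where *D. melanogaster* has 1 library, assumed to vary like the other 2. The correlation with Canton-S without eya-3, chosen after seeing the data, was 0.38 for *D. pseudoobscura* and 0.51 for *D. virilis*, against -0.05 and 0.34, and the cause was not tested. Without a strain, the median log2 ratio of *D. pseudoobscura* was 0.02 or 0.14 and that of *D. virilis* -0.58 or -0.23. No peak called apart changed its direction with another normalization or without a strain. The 8 reads of eya-11 in FRT82 and the 11 of eya-6 limit the comparison of the strains there.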
